A study of Mus musculus with 55 samples.

Results

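The genes described here are 10 known from mouse work as genes of long-term haematopoietic stem cells (LT-HSCs): Mecom, Hlf, Procr, Fgd5, Slamf1, Ctnnal1, Pdzk1ip1, Mllt3, Ndn and Mycn. Not all of them set LT-HSCs apart from short-term stem cells in these libraries. The 10 genes were chosen by symbol, with earlier results of these data known. Counts of members called are therefore descriptions where they stand beside the share over all genes. All 10 were found among the 55421 genes counted in the main table and again among the 35976 genes of a second table of LT-HSC libraries. The study sorted bone marrow cells of C57BL/6 mice, wild type (WT) or with Tet2 deleted in blood-forming cells (Tet2 KO), into 6 populations: LT-HSC, short-term HSC (ST-HSC), common myeloid progenitor (CMP), granulocyte-monocyte progenitor (GMP), megakaryocyte-erythroid progenitor (MEP) and common lymphoid progenitor (CLP). The Tet2 KO mice carried floxed Tet2 and Mx1-Cre, a recombinase gene driven by an interferon-responsive promoter that is not confined to stem cells. By the study's methods they received 5 doses of poly(I:C) from 4 weeks of age and were kept for 16 weeks after induction. The study's text gives the Tet2 alleles of the LT-HSC controls as wild type, and whether WT mice carried Mx1-Cre or received poly(I:C) is not given in the sources used here. LT-HSC and ST-HSC shared the lineage-negative, cKit-positive, Sca1-positive, CD48-negative gate and differed in CD150, the product of Slamf1, so the LT-HSC to ST-HSC difference in Slamf1 is a property of the sort.

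The main table held 46 libraries, 3 each for WT LT-HSC and WT ST-HSC and 4 for each of the other 10 groups. The second table held 9 LT-HSC libraries, 3 each from WT mice, mice labelled Sting KO (germline Sting-/-) and mice labelled Tet2/Sting DKO (floxed Tet2, Sting-/-, Mx1-Cre). By the study's text the Tet2/Sting DKO mice also received poly(I:C). Whether the WT and Sting KO mice of these libraries received it is not given in the sources used here. The study's legends count its sequencing replicates as mice, so the p-values measure the spread between mice, although the labels do not tie a numbered library to a mouse. Library totals ran from 50458473 to 102148079 counts in the main table and from 26776517 to 78682096 in the second. Levels are given as CPM, a library's reads of a gene over its total and scaled by edgeR's TMM factors, which make libraries comparable. Amplified reads without molecular identifiers are not independent molecules, and 3 counts in a library is treated as the floor below which no level is read. A gene was called where edgeR's quasi-likelihood test gave a Benjamini-Hochberg adjusted p under 0.05 over all genes tested and the difference was at least 2-fold. In bulk libraries fewer cells of a type and less RNA per cell cannot be told apart.

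Tet2 itself overlapped between the libraries labelled Tet2 KO and WT in each of the 6 populations, at 12.01 to 40.4 CPM in Tet2 KO LT-HSC against 11.2 to 14.3 in WT. Its mean was lower in Tet2 KO in ST-HSC (18.7 against 22.6 CPM), CMP (16.2 against 20.7) and MEP (10.99 against 12.3), and higher in the other 3. A count over the whole gene is not resolved by exon and does not check the deletion. Genes that mark CLP and GMP were high there. Il7r, the gene of the CLP gate, lay between 230.8 and 1119 CPM in the CLP libraries and at most 10.3 in any other group. Mpo reached 18710 to 26600 CPM in GMP. Klf1, an erythroid factor, was at 238.3 to 399.1 CPM in WT MEP. In Tet2 KO MEP it was at 25.3 to 48.3 CPM, which overlaps WT CMP. It was called lower there, where edgeR called 4.36% of all genes tested, so it does not mark Tet2 KO MEP as it does WT MEP. The CLP libraries were uneven, with the summed neutrophil and GMP markers between 11.5 and 3043 CPM in WT and between 2.63 and 12060 in Tet2 KO. Of 7 endothelial markers, 4 were at the floor in each LT-HSC group, with Cdh5, Flt4 and Lyve1 at the floor in both, and the summed level was at most 9.40 CPM.

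LT-HSCs are rare, mostly quiescent cells that sustain blood formation for life, and they give rise through ST-HSCs to the myeloid, erythroid and lymphoid progenitors. The 10 genes fall into roles that are known from mouse work. Mecom and Hlf encode transcription factors required for stem cell maintenance, Mllt3 encodes a reader of acylated histones in transcription elongation complexes, Mycn encodes a MYC family factor, and Ndn encodes the growth suppressor necdin. Procr (EPCR) and Slamf1 (CD150) encode surface receptors used to sort HSCs, Fgd5 and Ctnnal1 are known from HSC reporter mice and encode a guanine nucleotide exchange factor and an α-catenin-like protein, and Pdzk1ip1 encodes a small membrane protein. TET2 oxidises methylated cytosine, mainly at CG dinucleotides, and its loss is a frequent early event in clonal haematopoiesis.

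The start regions of these genes differ widely in their content of CG, the dinucleotide at which TET2 mainly acts where it is methylated. Of these regions, 4 are shown, for members on which the comparisons turn. Mllt3 is the member called between genotypes, and Hlf and Mycn had the largest genotype differences in LT-HSC. Slamf1, the gene of the gate, is one with few CG pairs. Each region is the stretch upstream of the RefSeq start in GRCm38.p6, printed 5′ to 3′ on the gene's strand with each CG in capitals. Any bases that overlap the annotated gene are left off, which shortens the Mycn stretch to 172 bases and the Slamf1 stretch to 245. The regions are chr4:88033408-88033657 (minus strand), chr11:90390918-90391167 (minus), chr12:12941915-12942086 (minus) and chr1:171766882-171767126 (plus).
Mllt3: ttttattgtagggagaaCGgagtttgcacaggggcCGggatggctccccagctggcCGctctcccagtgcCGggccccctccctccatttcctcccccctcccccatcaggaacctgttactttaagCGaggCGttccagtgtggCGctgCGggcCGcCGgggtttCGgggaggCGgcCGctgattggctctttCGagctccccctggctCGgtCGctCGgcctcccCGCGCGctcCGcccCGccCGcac
Hlf: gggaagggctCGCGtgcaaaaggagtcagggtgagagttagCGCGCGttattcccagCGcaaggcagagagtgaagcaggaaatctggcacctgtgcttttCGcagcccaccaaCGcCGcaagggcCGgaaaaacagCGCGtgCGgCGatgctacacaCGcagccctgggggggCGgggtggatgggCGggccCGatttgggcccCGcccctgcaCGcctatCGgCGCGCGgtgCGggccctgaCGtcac
Mycn: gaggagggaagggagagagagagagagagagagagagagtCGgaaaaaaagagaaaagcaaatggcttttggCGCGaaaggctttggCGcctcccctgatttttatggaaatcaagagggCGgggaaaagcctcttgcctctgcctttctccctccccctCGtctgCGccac
Slamf1: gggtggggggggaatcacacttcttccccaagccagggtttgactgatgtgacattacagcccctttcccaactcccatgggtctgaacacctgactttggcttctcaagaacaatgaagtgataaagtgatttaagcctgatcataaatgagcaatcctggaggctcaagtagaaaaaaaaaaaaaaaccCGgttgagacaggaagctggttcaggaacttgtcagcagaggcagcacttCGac
Over the full 250 bases before each start, the members held between 3 and 31 CG pairs, against a median of 6 over 32817 RefSeq windows. Fgd5 held 31, Hlf 26, Mllt3 23 at the start shown and 4 at its other RefSeq start, Ctnnal1 18, Procr 13 and Mycn 11, while Slamf1 and Pdzk1ip1 held 3 each and Ndn 5. Mecom has RefSeq starts with 14 and 8 pairs. Both Mecom windows, the Ndn window and the other Mllt3 window lie inside the annotated gene. Among short motifs searched on both strands, CACGTG, the E-box of MYC and MAX, lay in the Pdzk1ip1 window (6.02% of all windows hold it), and TTANGTAA, the element of HLF and related factors, in the Ndn window (2.06% of all windows). TGTGGTT (4.39% of windows), AGATAA (9.99%) and CCGGAAGT (2.88%) were in none of the 12 member windows. These are descriptions of the reference sequence, as methylation was not measured in these libraries.

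The 10 genes were expressed in WT LT-HSCs over a wide range of levels. Per kilobase of exon, Pdzk1ip1 was the highest at 126.5 CPM per kb, followed by Procr at 17.4, Mllt3 at 13.9, Mycn at 12.7, Ndn at 11, Hlf at 10.5, Slamf1 at 8.23 and Mecom at 6.70, with Fgd5 at 2.73 and Ctnnal1 at 2.56. In Tet2 KO LT-HSCs, Mycn stood second at 27.4 CPM per kb, Procr at 26.7 and Hlf at 25.5, behind Pdzk1ip1 at 128.5. Reads in Mecom, Fgd5 and Ndn may include those of genes on the opposite strand (Mecomos, 4930466I24Rik and Gm32061), since whether the counting used strand is not given in the sources used here.

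**Figure D1:**
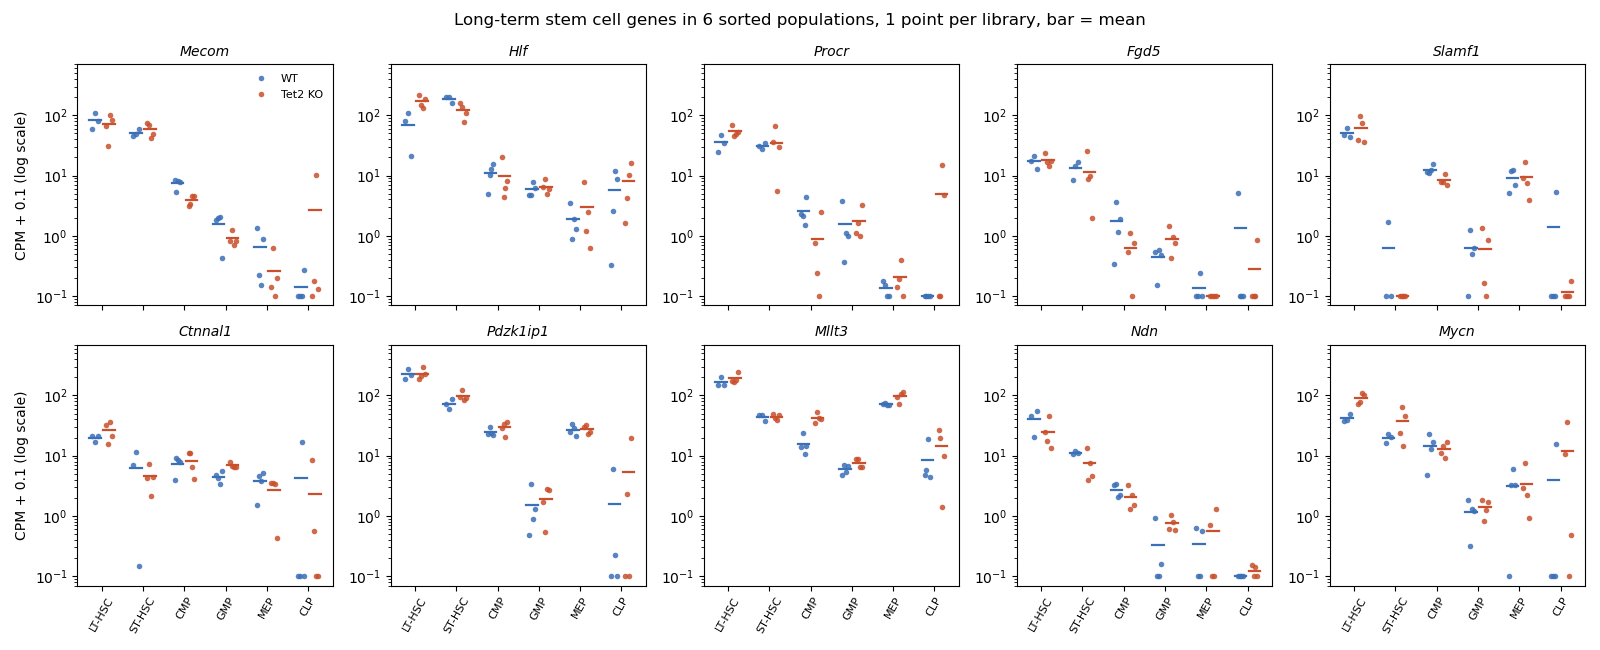
Level of each of the 10 genes in every library of the main table, in TMM-scaled CPM on a log axis with 0.1 added, by population and genotype; points are libraries and bars are group means. LT-HSC points lie above those of CMP, GMP and MEP for every gene in both genotypes, and Hlf is the gene whose WT ST-HSC points lie above its WT LT-HSC points.

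Mecom was lower at each step from stem cells to myeloid progenitors in WT. Its level was 59.6, 109 and 81.6 CPM in the 3 WT LT-HSC libraries, 45.9, 49.2 and 58.3 in WT ST-HSC, and 8.40, 5.17, 8.06 and 7.63 in WT CMP. These 3 groups did not overlap, whereas GMP, MEP and CLP, with means of 1.47, 0.547 and 0.0427 CPM, each overlapped the next. In Tet2 KO the LT-HSC libraries (67.0, 31.1, 102 and 84.3 CPM) overlapped those of ST-HSC (74.9, 69.1, 41.1 and 49.7 CPM).

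Hlf had another order. In WT it was highest in ST-HSC, at 202, 198 and 157 CPM, and lower in LT-HSC, at 78.8, 110.0 and 21.0 CPM, with no overlap. In Tet2 KO the LT-HSC libraries stood at 215, 146, 129.9 and 189 CPM and those of ST-HSC at 160.2, 136, 75.9 and 111 CPM, which overlap. In both genotypes Hlf was far lower in CMP, with means of 10.7 ± 4.41 CPM (SD, n = 4) in WT and 9.67 ± 7.21 (n = 4) in Tet2 KO, and in Tet2 KO the committed populations overlapped each other. In WT the MEP libraries, at 0.775 to 3.42 CPM, lay below every CMP (4.87 to 15.2) and GMP (4.69 to 7.78) library.

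Procr and Fgd5 did not separate the LT-HSC and ST-HSC libraries in either genotype. Procr was at 24.7, 46.6 and 34.9 CPM in WT LT-HSC and 30.5, 27.4 and 33.9 in WT ST-HSC, and it fell to a mean of 2.45 ± 1.23 CPM (n = 4) in CMP. Fgd5 was at 17.4, 21.4 and 12.9 CPM in WT LT-HSC, 8.45, 14.3 and 16.9 in WT ST-HSC, and 0.236 to 3.51 in WT CMP. In the 4 WT MEP libraries Procr had 4, 4, 0 and 0 counts and Fgd5 0, 0, 11 and 0, and Procr had 0 counts in all 4 WT CLP libraries. The LT-HSC to CMP difference in Procr passed the test in WT, as given below, and that in Fgd5 did not.

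Slamf1 followed its gate, at 46.5, 61.4 and 44.1 CPM in WT LT-HSC and 0, 1.59 and 0 in WT ST-HSC. The sort did not use Slamf1 for the myeloid progenitors, and there it reappeared at 12.5 ± 2.05 CPM (n = 4) in WT CMP and 8.92 ± 3.60 (n = 4) in WT MEP, which overlapped each other, while GMP lay at 0 to 1.17 CPM. In Tet2 KO, MEP was at 9.20 ± 5.31 CPM and CMP at 8.23 ± 1.6 (n = 4 each), which again overlapped each other.

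Mllt3 and Pdzk1ip1 were high in LT-HSC and kept a clear level in MEP. Mllt3 was at 148, 203 and 149.6 CPM in WT LT-HSC, 47.8, 46.8 and 37.8 in WT ST-HSC, and 72.5, 73.9, 68.3 and 69.1 in WT MEP, so that MEP stood between LT-HSC and ST-HSC with no overlap on either side. WT CMP followed at 14, 23.3, 10.4 and 14.2 CPM and WT GMP at 4.68 to 6.93. Pdzk1ip1 was at 184, 276 and 214 CPM in WT LT-HSC and 72.5, 58.5 and 88.5 in WT ST-HSC, without overlap. Below these lay WT MEP (27.1 ± 5.68 CPM, n = 4) and WT CMP (24.4 ± 3.45, n = 4), which overlapped each other. WT GMP was at 0.389 to 3.27 CPM, below every WT CMP and MEP library.

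Ndn, Ctnnal1 and Mycn completed the set. Ndn was at 46, 20.2 and 56 CPM in WT LT-HSC, 10.6, 12 and 10.8 in WT ST-HSC and 1.95 to 3.25 in WT CMP, with no overlap between these groups, and had 0 counts in all 4 WT CLP libraries. Ctnnal1 was at 21.0, 16.5 and 21.4 CPM in WT LT-HSC and at group means between 3.69 and 7.21 CPM in the other 5 WT populations, each overlapping the next in order. Mycn was at 38.0, 39.0 and 48.9 CPM in WT LT-HSC and 15.9, 22.5 and 20.0 in WT ST-HSC, where it overlapped WT CMP (4.71 to 22.8 CPM). In GMP it was at 1.07 ± 0.637 CPM (n = 4), and in WT CLP it had 0 counts in 3 libraries and 15.3 CPM in the fourth.

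The first comparison asked how far the 10 genes set LT-HSCs apart from each other population, in a fit of all 6 populations of 1 genotype. Against ST-HSC, the nearest population, 0 of the 10 were called in WT, where edgeR's quasi-likelihood test called 0.175% of all genes tested. At an unadjusted p under 0.05 there were 2, Slamf1 and Mllt3 (8.85% of all genes), and DESeq2 called 1 (2.74% of all genes). Mllt3 came closest, higher in LT-HSC by 1.90 ± 0.44 on the log2 scale (SE, adjusted p = 0.101), and it was called in a fit of the LT-HSC and ST-HSC libraries alone (0.209% of all genes) and by DESeq2. The ranges of 7 genes lay higher in LT-HSC without overlap (Slamf1 of the gate, Mllt3, Ndn, Ctnnal1, Pdzk1ip1, Mycn and Mecom), against 8.95% of all genes, and those of Hlf lay lower, as for 7.86% of all genes. The exact two-sided permutation test of 3 against 3 libraries cannot go below 0.1, which these 8 genes reached. The log2 differences among the 6 apart from Slamf1 were 1.85 for Ndn, 1.66 for Ctnnal1 (1.08 without WT ST-HSC replicate 5, which held 4 counts, and 2.44 without replicate 3), 1.6 for Pdzk1ip1, 1.09 for Mycn and 0.68 for Mecom beside that of Mllt3, and Hlf was at -1.43 ± 0.84 (adjusted p = 0.701). In Tet2 KO, Slamf1 was called, at least 1490-fold higher in LT-HSC against a floor of 3 counts per library, in a comparison that called 0.118% of all genes tested. Mllt3 (2.1 ± 0.48, adjusted p = 0.118), Ctnnal1 (2.52 ± 1.27), Pdzk1ip1 (1.21 ± 1.08) and Mycn (1.27 ± 1.07) were again without overlap, and Ndn, Mecom and Hlf were not. Mllt3 was also called there by the fit of LT-HSC and ST-HSC alone (0.172% of all genes) and by DESeq2 (2.89%). Non-overlapping higher ranges made up 2.63% of all genes in that comparison. Cd48, whose product the gate of both populations excludes, was at 33.0 to 53.2 CPM in WT ST-HSC and 21.1 to 89.8 in Tet2 KO ST-HSC, against 2.20 to 13.9 and 0.0624 to 13.2 in LT-HSC. The progenitor genes Mpo (61.7 to 89.4 against 3.17 to 6.02 CPM in WT) and Dntt (20.5 to 116.8 against 0 to 0.281) were also higher in ST-HSC without overlap, and their part in the LT-HSC to ST-HSC differences was not tested.

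Against CMP, Mecom, Hlf, Procr and Mllt3 were called higher in WT LT-HSC, 4 of 10, where 1.36% of all genes tested were called higher. The log2 differences by edgeR's quasi-likelihood test were 3.41 ± 0.41 for Mllt3 (adjusted p = 3.15e-05), 3.82 ± 0.93 for Procr (adjusted p = 0.0203), 3.49 ± 0.94 for Mecom (adjusted p = 0.0285) and 2.68 ± 0.79 for Hlf (adjusted p = 0.0458). Leaving out 1 library at a time kept the Mllt3 call in all 7 fits, the Procr call in 2, the Hlf call in 1 and the Mecom call in none. In Tet2 KO, Hlf (4.14 ± 0.75, adjusted p = 0.00282) and Mllt3 (2.17 ± 0.49, adjusted p = 0.0124) were called, with 1.44% of all genes called higher, and both held in every such fit. The Hlf difference there was 4.77 without Tet2 KO CMP replicate 2. The ranges of all 10 genes lay higher in LT-HSC than in CMP in both genotypes, as did those of 17.1% of all genes in WT and 10.2% in Tet2 KO.

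Against GMP, 8 of 10 were called higher in WT (all but Ctnnal1 and Mycn), where 6.35% of all genes tested were. Ndn was higher by 7.28 ± 1.82 on the log2 scale (adjusted p = 0.00906), Pdzk1ip1 by 7.25 ± 1.37 (adjusted p = 0.000752), Slamf1 by 6.49 ± 2.09 (adjusted p = 0.0338), Mecom by 5.77 ± 1.03 (adjusted p = 0.000421), Fgd5 by 5.52 ± 1.92 (adjusted p = 0.0498), Mllt3 by 4.78 ± 0.44 (adjusted p = 3.3e-07), Procr by 4.55 ± 0.96 (adjusted p = 0.00274) and Hlf by 3.55 ± 0.81 (adjusted p = 0.00372), all by edgeR. The Fgd5 and Slamf1 calls were lost whichever library was left out, and the other 6 held throughout. The Ndn value rests in part on WT GMP replicate 2, as the other 3 held 0, 0 and 5 counts, and without it that of Procr was 5.58. Without WT GMP replicate 3, Pdzk1ip1 was at 8.09 and Slamf1 at 7.24. In Tet2 KO, 7 of 10 were called higher (6.7% of all genes tested), namely Pdzk1ip1 (6.87), Slamf1 (6.76), Mecom (6.36), Mycn (6.01), Ndn (5.12), Hlf (4.66) and Mllt3 (4.59), and all 7 held. Slamf1 was at 7.65 there without Tet2 KO GMP replicate 2.

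Against MEP, 6 of 10 were called higher in each genotype, with 7.42% of all genes tested called higher in WT and 8.92% in Tet2 KO. Mecom, Hlf, Procr, Fgd5 and Ndn were in both, with log2 differences in WT of 7.22 for Mecom, 5.29 for Hlf and 7.24 for Ndn. For Procr and Fgd5 the few counts in WT MEP allow no size to be read. In Tet2 KO MEP all 4 libraries had 0 counts of Fgd5, which put it at least 447-fold higher in LT-HSC, and the log2 differences of Mecom, Hlf, Procr and Ndn were 8.56, 5.85, 8.67 and 5.70. The sixth was Mllt3 in WT (1.27 ± 0.39, adjusted p = 0.0351 by edgeR, lost whichever library was left out) and Mycn in Tet2 KO (4.75 ± 1.23, adjusted p = 0.0108). Single MEP libraries moved several of these values without ending a call. In WT, Mecom was at 7.94 without MEP replicate 2. In Tet2 KO, Hlf was at 6.96 without MEP replicate 2, Mycn at 5.51 without MEP replicate 3 and Ndn at 6.72 without MEP replicate 5. The Tet2 KO values of Mecom and Procr rest on MEP replicates 3 and 4, with 34 and 20 counts, as the other 3 libraries held 4, 0 and 8 counts of Mecom and 4, 6 and 0 of Procr. Mllt3 was the member that MEP retained most, with a log2 difference of 0.99 ± 0.47 in Tet2 KO (adjusted p = 0.151).

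Against CLP, 6 of 10 were called higher in WT (15.0% of all genes tested) and 7 in Tet2 KO (11%). In WT these were Mecom, with 8 counts in 1 CLP library and 0 in the other 3, Pdzk1ip1 (7.19 ± 1.37), Mllt3 (4.31 ± 0.43) and Hlf (3.61 ± 0.81) on the log2 scale, together with Procr and Ndn, which had 0 counts in every WT CLP library and were at least 489-fold and at least 562-fold higher in LT-HSC. In Tet2 KO they were Slamf1, with 5 counts in 1 CLP library and 0 in the other 3, Ndn, with 4, 0, 2 and 0 counts, and, with log2 differences, Fgd5 (6.4), Pdzk1ip1 (5.40), Mecom (4.77), Hlf (4.41) and Mllt3 (3.76). All of these calls held when any 1 library was left out, but single CLP libraries set several of the values. In WT that of Pdzk1ip1 rests on CLP replicate 3, as the other 3 held 0, 4 and 0 counts, and without replicate 4 those of Mllt3 and Hlf were 5.09 and 4.23. In Tet2 KO that of Mecom rests on CLP replicate 4, with 10.3 CPM of Mecom and 15.1 of Procr, as the other 3 held 0, 6 and 2 counts of Mecom. That of Fgd5 rests on CLP replicate 5, with 50 counts and 0 in the other 3, and without that library Pdzk1ip1 was at 8.22 and Hlf at 5.02. In a fit of LT-HSC and CLP alone, 4 members were called in each genotype, where 10.0% of all genes tested were called higher in WT and 4.73% in Tet2 KO. Hlf (adjusted p = 0.0806 by edgeR) and Pdzk1ip1 (0.0563) lost their calls in WT, and Mecom, Fgd5 and Pdzk1ip1 in Tet2 KO.

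**Figure D2:**
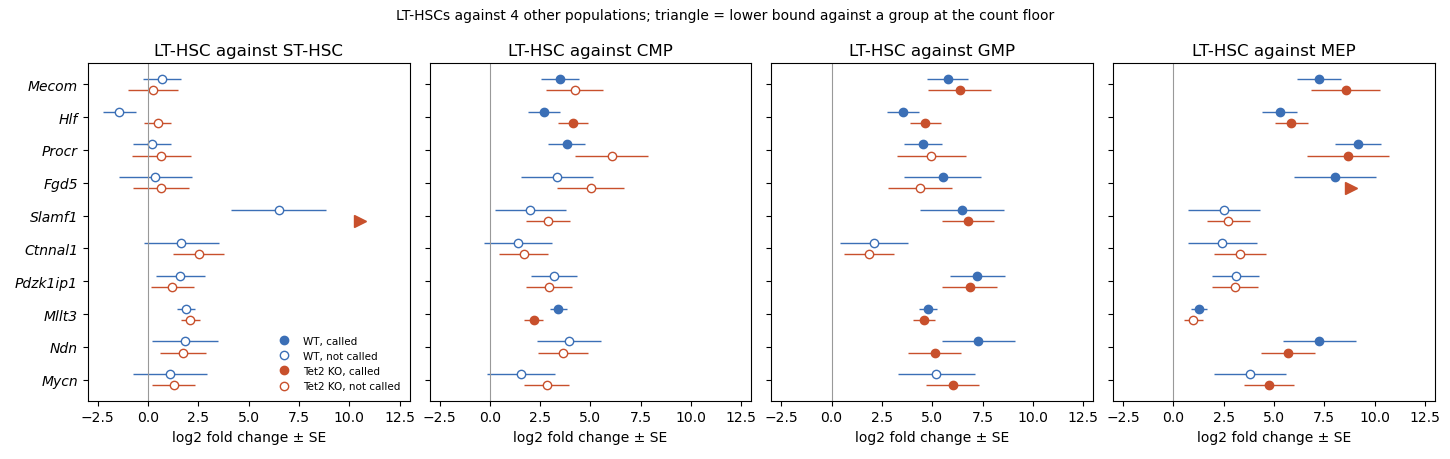
Log2 difference of LT-HSC against ST-HSC, CMP, GMP and MEP for the 10 genes, WT and Tet2 KO. Bars are 1 SE derived from edgeR's test, and filled points are genes called. Triangles mark lower bounds for Slamf1 and Fgd5, and the WT points of Procr and Fgd5 against MEP rest on at most 11 counts in a MEP library. WT Hlf against ST-HSC, at -1.43, is the point that lies below 0.

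The median log2 difference over the 10 members was smallest against ST-HSC in both genotypes. In WT it was 1.34 against ST-HSC, 3.26 against CMP, 5.36 against GMP, 4.55 against MEP and 4.77 against CLP, and in Tet2 KO 1.24, 3.29, 5.04, 5.22 and 4.59, while the median over all genes stayed between -0.03 and 0.13. Members at 0 counts lay on the same side of these medians at their lower bounds. The ranges of all 10 genes also lay higher in LT-HSC than in GMP (23.4% of all genes in WT, 18.9% in Tet2 KO) and in MEP (22.6% and 17.9%), and against CLP those of 9 in WT (23% of all genes, Ctnnal1 overlapping) and 10 in Tet2 KO (12.8%). These comparisons share their LT-HSC libraries within a genotype. Of 30 other stem cell genes, 0 were called against ST-HSC in either genotype, and 6 were called higher against CMP, 14 against GMP, 12 against MEP and 20 against CLP in WT, and 7, 16, 17 and 12 in Tet2 KO. Among them, Sult1a1, a sulfotransferase, was at 331 ± 95.2 CPM in WT LT-HSC (n = 3) against 1.08 ± 0.802 in CMP (n = 4), and Mmrn1, a multimerin, at 286 ± 92.2 against 0.664 ± 0.768 in GMP (n = 4).

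The second comparison asked whether the loss of Tet2 altered the 10 genes within a population. In LT-HSC 0 of the 10 were called by edgeR, which called 4 of the 16351 genes tested (0.0245%). At an unadjusted p under 0.05 there were 2, Hlf and Mycn (5.16% of all genes), and DESeq2 called 1, Mycn (1.02% of all genes). These were also the members whose ranges lay higher in Tet2 KO without overlap, as did 3.12% of all genes, and no member lay lower without overlap (3.96% of all genes).

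Mycn was at 72.6, 77.3, 109.5 and 102 CPM in the Tet2 KO LT-HSC libraries and at 38.0, 39.0 and 48.9 in WT. All 4 Tet2 KO libraries lay above all 3 WT libraries. The means were 90.4 ± 18.2 CPM (SD, n = 4) and 41.9 ± 6.03 (n = 3), the log2 difference was 1.13 ± 0.24 (SE), and the adjusted p was 0.445 by edgeR's quasi-likelihood test. The exact two-sided permutation test gave p = 0.0286, the smallest possible with 4 against 3 libraries. With DESeq2 the adjusted p was 0.000364, and over the alternatives other than leaving out a library it ranged up to 1.0. The interaction fit gave no call for a Mycn effect of LT-HSC beyond the mean effect of the other 5 populations (0.55 ± 1.59 on the log2 scale, adjusted p = 1 by edgeR).

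Hlf was at 215, 146, 129.9 and 189 CPM in Tet2 KO LT-HSC and at 78.8, 110.0 and 21.0 in WT. The lowest Tet2 KO library stood above the highest WT library. The means were 170.2 ± 39.1 CPM (n = 4) and 69.9 ± 45.1 (n = 3), with a log2 difference of 1.30 ± 0.50 (adjusted p = 0.848 by edgeR, exact two-sided permutation p = 0.0286). In ST-HSC the order was the opposite and the ranges overlapped, with 121 ± 36.0 CPM in Tet2 KO (n = 4) and 186 ± 24.9 in WT (n = 3), a log2 difference of -0.59 ± 0.26 (adjusted p = 0.83 by edgeR). The test of the difference between these effects gave 1.91 ± 1.09 on the log2 scale with an adjusted p of 1, so the LT-HSC and ST-HSC effects were not shown to differ. Against the mean effect of the other 5 populations the value was 1.18 ± 0.85 (adjusted p = 1 by edgeR). The share of mitochondrial reads was 8.82 to 14.495% in Tet2 KO LT-HSC and 8.02 to 9.50% in WT, with 3 of the 4 Tet2 KO libraries above all WT libraries, and 10.01 to 13.1% against 8.73 to 9.02% in ST-HSC. Its part in the Mycn and Hlf values was not tested.

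The remaining members of LT-HSC overlapped between genotypes. Procr was at 69.0, 45.1, 49.4 and 53.6 CPM in Tet2 KO against 24.7, 46.6 and 34.9 in WT (0.64 ± 0.29 on the log2 scale, adjusted p = 0.995 by edgeR), and Ndn at 24.7, 17.7, 44.9 and 13.1 against 46, 20.2 and 56 (-0.68 ± 0.49). Mecom, Fgd5, Slamf1, Ctnnal1, Pdzk1ip1 and Mllt3 had adjusted p of 0.998 each. For Pdzk1ip1 the means were nearly equal, at 229 ± 45.1 and 225 ± 47.2 CPM. Over the 10 members the median log2 difference was 0.26, with 8 of 10 above 0, beside a median of 0.06 and 54.3% above 0 over all genes. The summed level of 5 megakaryocyte genes was 145.5 to 401.9 CPM in Tet2 KO LT-HSC and 418.2 to 438.6 in WT, and its part in these values was not tested.

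**Figure D3:**
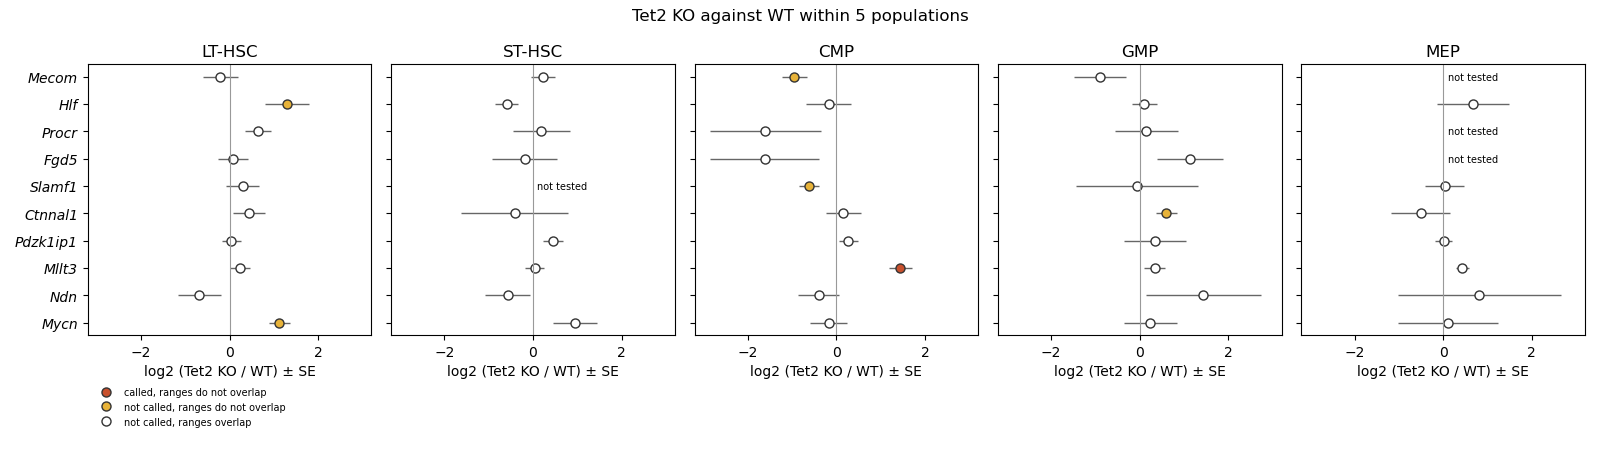
Log2 difference of Tet2 KO against WT for each gene in LT-HSC, ST-HSC, CMP, GMP and MEP, with bars of 1 SE derived from edgeR's test. Genes that did not pass the low-count filter are written as not tested. Red marks a call, yellow ranges that do not overlap without a call, and white the rest. Mllt3 in CMP at 1.44 is the red point, and Hlf and Mycn in LT-HSC lie at 1.30 and 1.13.

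In CMP, Mllt3 was called higher in Tet2 KO, 1 of 10 members, where 0.654% of all genes tested were called higher. It was at 34.5, 52.4, 42.6 and 40.7 CPM in Tet2 KO and at 14, 23.3, 10.4 and 14.2 in WT, so that every Tet2 KO library lay above every WT library, as for 6.82% of all genes. The means were 42.5 ± 7.42 and 15.5 ± 5.5 CPM (SD, n = 4 each) and the log2 difference was 1.44 ± 0.26 (adjusted p = 0.00935 by edgeR, exact two-sided permutation p = 0.0286, the smallest possible). The call held in all 8 fits that left out 1 library, with adjusted p between 0.00333 and 0.0392, and was lost in a single fit of all 46 libraries (adjusted p = 0.117). The Tet2 KO CMP libraries overlapped those of Tet2 KO ST-HSC, where Mllt3 was at 44.4 ± 4.77 CPM (n = 4), while the WT CMP libraries lay below WT ST-HSC. In the same CMP libraries the 6 erythroid markers, none of them at the floor, summed to 2655 to 5465 CPM in Tet2 KO and 414.2 to 1500 in WT, and Klf1 was at 13.7 to 19.2 against 26.0 to 70.9 CPM. The share of mitochondrial reads was 7.85 to 8.37% in these Tet2 KO libraries and 5.94 to 6.57% in WT, without overlap. The part of these markers and of the mitochondrial share in the Mllt3 difference was not tested.

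Mecom and Slamf1 lay lower in Tet2 KO CMP without overlap, 2 of 10 members, as did 8.9% of all genes. Mecom was at 3.03, 3.27, 4.39 and 4.55 CPM against 8.40, 5.17, 8.06 and 7.63 in WT, a log2 difference of -0.95 ± 0.29 (adjusted p = 0.091 by edgeR). Slamf1 was at 7.79, 7.62, 10.6 and 6.95 CPM against 11.5, 10.8, 12.2 and 15.4 (-0.61 ± 0.22, adjusted p = 0.163 by edgeR). Neither was called. Of the other stem cell genes, 27 were tested in CMP. Mmrn1 was called higher in Tet2 KO, at 38.2 ± 3.47 against 15.9 ± 4.64 CPM (log2 difference 1.25, n = 4 each), and Gata2, a transcription factor of stem and mast cells, was called lower (as were 3.92% of all genes), at 8.98 ± 3.26 against 64.4 ± 44.9 CPM (-2.86). Gata2 was also called lower in GMP (-1.13, adjusted p = 0.0479 by edgeR), as were 4.06% of all genes.

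No member was called between genotypes in ST-HSC, GMP, MEP or CLP, where edgeR called 0.0185%, 4.37%, 4.36% and 0.00766% of all genes tested. At an unadjusted p under 0.05 there were 0, 1, 1 and 0 members (6.13%, 17.3%, 16.4% and 3.65% of all genes), and DESeq2, which called 1.42%, 4.02%, 4.17% and 2.32% of all genes, called 1 member, Procr in CLP. In ST-HSC 9 members passed the low-count filter, and Mycn, at 24.1, 64.5, 14.4 and 44.7 CPM in Tet2 KO against 15.9, 22.5 and 20.0 in WT, overlapped (0.95 ± 0.49, adjusted p = 0.913), as did Pdzk1ip1 (0.45 ± 0.23, adjusted p = 0.908). In GMP, Ctnnal1 was at 7.90, 6.58, 6.47 and 6.38 CPM in Tet2 KO against 4.63, 4.16, 3.26 and 5.57 in WT. It lay higher without overlap, as did 5.83% of all genes, with a log2 difference of 0.60 ± 0.24 (adjusted p = 0.219 by edgeR). The mitochondrial share in GMP was 4.74 to 5.09% in Tet2 KO and 3.64 to 4.598% in WT, also without overlap, and its part was not tested. In MEP 7 members were tested, and Mllt3 was at 93.6, 73.2, 105 and 113 CPM against 72.5, 73.9, 68.3 and 69.1, with overlap at 1 library (0.43 ± 0.15, adjusted p = 0.163 by edgeR). In CLP 3 members were tested, Hlf, Mllt3 and Mycn, whose libraries were far apart within a group, as for Mycn at 0 to 15.3 CPM in WT and 0 to 36.5 in Tet2 KO. Neither interaction fit called a member, with 0.139% of all genes called for LT-HSC against the mean of the other 5 populations and 0.00447% for LT-HSC against ST-HSC. At an unadjusted p under 0.05 there were 0 and 1 (Slamf1, of the gate) members, beside 5.04% and 5.98% of all genes, and DESeq2 called Slamf1 in each, with 3.84% and 3.07% of all genes.

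Across the 12 group means of the main table the members varied in how closely they followed one another. Over 45 pairs of members, Pearson's r between group means of log2(CPM + 0.5) ran from 0.123 (Hlf and Slamf1) to 0.969 (Hlf and Procr), with a median of 0.721 and 19 pairs above 0.8. These points share the libraries and are given as a description. Among the 11309 genes with a mean of at least 10 CPM in 1 or more groups, ranked by r with the members' mean pattern (of which each member is itself a part), Ndn came first (0.982), Mycn was at rank 19 and Mecom at 48, while Slamf1, which lacks the ST-HSC level, was at rank 2255 (0.589). The genes outside the set most like the pattern were Flywch2 (0.982), Trim47 (0.980), Hacd4 (0.976), Ptn (0.973), Serpinb6a (0.973), Mmrn1 (0.972), Obsl1 (0.968) and Gm16140 (0.968). Hacd4, for example, had WT means of 165 CPM in LT-HSC, 87.5 in ST-HSC, 13.1 in CMP and 2.57 in MEP.

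The second table compared LT-HSCs of WT mice with those of mice labelled Sting KO and Tet2/Sting DKO. Tmem173, which encodes STING, went against the Sting KO label: it was at 45.8, 34.4 and 0 CPM in the WT libraries, while in the Sting KO libraries it stood at 120.2, 0 and 62.1 CPM and in the Tet2/Sting DKO libraries at 0, 0.2 and 25.9. Tet2 was at 42.4, 20.0 and 1.29 CPM in the Tet2/Sting DKO libraries against 25, 0 and 0 in WT, which overlap and give no lower level under that label. Whole-gene counts do not check a deletion of exons. Xist, transcribed from the inactive X, was at 90.7 to 242.6 CPM in the WT libraries and at most 15.3 in the rest. The Y-linked Eif2s3y was at 153.3 to 322.1 CPM in that rest. Sex and genotype therefore cannot be told apart where either labelled group is compared with WT. Where the Tet2/Sting DKO group is compared with another, a part of poly(I:C) treatment cannot be told apart from genotype either. The median library total was 40641627 counts, against 70118186.5 in the main table, with overlapping ranges, and between 9382 and 11528 genes were detected, against 13754 to 20964. Single members dropped to 0 in some of them. Fgd5, for example, had 20.5, 0 and 1.32 CPM in WT, 0, 0.048 and 8.03 under the Sting KO label and 0, 0.014 and 0.184 under the Tet2/Sting DKO label.

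No member was called in the second table, where edgeR called 0.0% of genes for the libraries labelled Sting KO against WT, 0.657% for Tet2/Sting DKO against WT and 0.159% for Tet2/Sting DKO against Sting KO. No member had an unadjusted p under 0.05 there, beside 4.71%, 13.2% and 8.3% of all genes, and DESeq2 called 0 members, with 3.45%, 11.4% and 6.95% of all genes called. Mycn was at 36.8, 22.6 and 48.2 CPM in WT, 9.36, 8.16 and 0.0971 under the Sting KO label and 0, 0.0279 and 6.35 under the Tet2/Sting DKO label. Both labelled groups lay below WT without overlap, as 7.48% and 13.7% of all genes did, and neither difference was called (-2.59 ± 1.83, adjusted p = 1, and -4.12 ± 2.62, adjusted p = 0.637, by edgeR). Those comparisons share the WT libraries. Without Tet2/Sting DKO replicate 3 the second value was -9.20. Ndn was at 60.9, 117 and 46.3 CPM under the Sting KO label and 1.87, 26.7 and 6.05 under the Tet2/Sting DKO label, without overlap, as for 10.7% of all genes (-2.72 ± 1.30, adjusted p = 0.696 by edgeR, and -4.22 without Tet2/Sting DKO replicate 2), and the WT libraries, at 48.0, 7.70 and 0 CPM, overlapped both groups. With 3 against 3 libraries the exact permutation test cannot go below 0.1. Hlf was at 87.3, 15.7 and 212 CPM in WT, 119, 78.0 and 72.8 under the Sting KO label and 100.3, 63.1 and 53.1 under the Tet2/Sting DKO label. Mllt3 was at 195, 103 and 261 CPM in WT, 171, 193 and 101 under the Sting KO label and 149.8, 122 and 47.2 under the Tet2/Sting DKO label. For both genes the WT libraries spanned most of the range of the other groups.

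**Figure D4:**
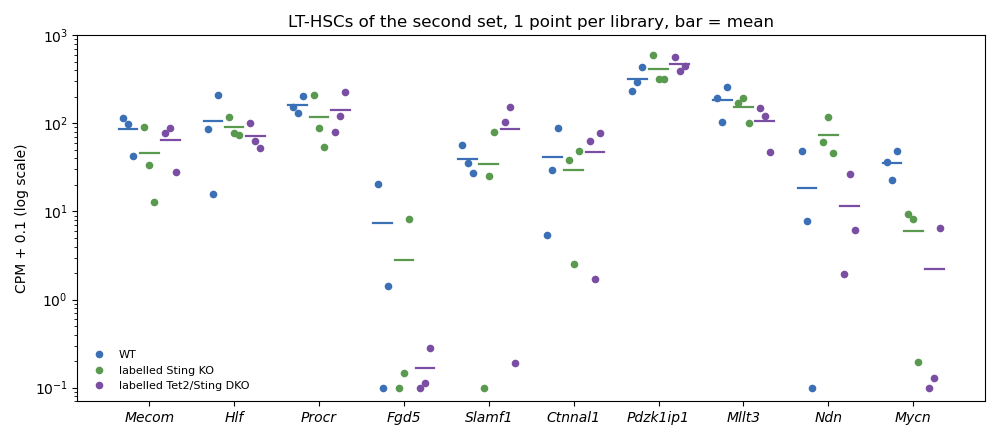
Level of the 10 genes in the 9 LT-HSC libraries of the second table, in TMM-scaled CPM on a log axis with 0.1 added; points are libraries, coloured by the labelled genotype, and bars are group means. Mycn is the gene for which all WT points, at 22.6 to 48.2 CPM, lie above all points of the other groups.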

How the data were processed

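About 200 cells (per the labels) or 300 (per the methods) were sorted for each SMART-seq2 library. The authors trimmed reads with Trim Galore, aligned them with Hisat2 to mm10 and deposited raw counts per gene. The submitters' processing notes list Trim Galore 0.6.7, HISAT2 7.5.0, DESeq2 and the builds mm10 and mm9. The second table has the column layout of featureCounts. The counting program of the main table, the annotation and the use of strand are not given in the sources used here. The 2 count tables were analysed separately, with 2 broken lines of the second left out. Both tables were used as deposited, and no column of the authors' own comparisons was used.

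Counts were tested with edgeR 4.0.16 (R 4.3.3) after filterByExpr and TMM scaling, with the quasi-likelihood test and Benjamini-Hochberg adjustment over all genes tested. Tet2 KO against WT was fitted on the libraries of both groups of 1 population, LT-HSC against other populations on all libraries of 1 genotype, and the differences between effects on all 46 libraries. The prior count was 2. The SE given with an edgeR log2 difference was derived as the size of that difference over the square root of the test's F statistic. It is approximate, as the prior count shrinks the log2 difference. Levels are TMM-scaled CPM, and correlations used a pseudocount of 0.5 CPM. Shares of genes with ranges that do not overlap are over genes with 10 or more counts in as many libraries as the smaller group. Single genes were also compared by exact two-sided permutation of library labels. Alternatives were DESeq2 1.42.0, its size factors (RLE), no low-count filter, the replicate number as a block, 1 fit of all libraries, fits of 2 populations alone, and leaving out each library. The tests were tried first on simulated counts in which 200 genes were changed 4-fold. For Tet2 KO against WT, edgeR called 28% of them in LT-HSC and 63.5% in CMP, and 34.5% for WT LT-HSC against GMP. DESeq2 called 59%, 78% and 52%, but also called 116, 66 and 177 unchanged genes, against 2, 3 and 1 by edgeR. A gene that edgeR did not call is therefore not shown to be unchanged.

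Every member is named. Genes of the list of other stem cell genes were named where they were among the 3 with the largest called differences in a comparison. The members and lists were chosen with earlier results of these data known. Exon lengths come from the GENCODE annotation of GRCm38 and upstream sequences from RefSeq (GRCm38.p6), in which all 10 members were matched.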

Additional observations from a re-analysis of the deposited data

Results flagged for a closer look

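In groups of 4 libraries, 1 library stood far from the other 3 (a gap to the nearest library, as a share of the group's range, above Dixon's 95% critical value) for 18 of the 96 combinations of member and group whose libraries were not all at 0. Chance alone would flag about 1 in 20 among groups of normally distributed values, a rate that does not hold for the 8 combinations in which the other 3 libraries were at 0. Of the 18, 12 were in CLP. In WT CLP the single high libraries were at 0.171 CPM for Mecom, 5.08 for Fgd5, 5.23 for Slamf1, 17 for Ctnnal1 and 15.3 for Mycn, each with 0 in the other 3, at 5.86 for Pdzk1ip1 (others up to 0.126) and at 18.9 for Mllt3 (others up to 5.79). In Tet2 KO CLP they were at 0.743 CPM for Fgd5 and 0.0743 for Slamf1, each with 0 in the other 3, at 10.3 for Mecom (others up to 0.0782), 8.45 for Ctnnal1 (others up to 0.469) and 19.3 for Pdzk1ip1 (others up to 2.19).

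In the other populations, Mllt3 reached 247 CPM in 1 Tet2 KO LT-HSC library (others 169 to 182), and Ctnnal1 7.90 CPM in 1 Tet2 KO GMP library (others 6.38 to 6.58). Fgd5 was at 0.144 CPM in 1 WT MEP library with 0 in the other 3, and Ndn at 0.842 CPM in 1 WT GMP library (others up to 0.0621). Single low libraries were found for Mecom in WT GMP at 0.323 CPM (others 1.70 to 1.96) and for Ctnnal1 in Tet2 KO MEP at 0.327 CPM (others 3.28 to 3.42).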

How the results depend on the processing

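Counts of members called depended most on the tool and on which libraries shared a fit. The share of all genes called under the same alternative is in parentheses, in the members' direction against CMP, MEP and CLP and in both directions otherwise. DESeq2 called 1 for Tet2 KO against WT in LT-HSC (1.02%) and 1 in CLP (2.32%), 1 for WT LT-HSC against ST-HSC (2.74%), 2 for Tet2 KO LT-HSC against ST-HSC (2.89%), 8 for Tet2 KO LT-HSC against CMP (3.53%), and 1 for each of the differences between effects (3.84% and 3.07%). Fits of LT-HSC and 1 other population alone called 1 against ST-HSC (0.209%), 9 against CMP (4.8%) and 10 against MEP (12.9%) in WT, and 2 against ST-HSC (0.172%), 10 against CMP (4.96%), 10 against MEP (14.1%) and 4 against CLP (4.73%) in Tet2 KO. One fit of all libraries called 0 for Tet2 KO against WT in CMP (1.27%) and 3 in CLP (6.61%). Leaving out 1 library gave 1 to 2 calls for WT LT-HSC against CMP in place of 4. The cause was not tested. Deviations of libraries with the same replicate number correlated at -0.0715 to 0.106 between genotypes and at -0.0654 to 0.296 between LT-HSC and another population, highest for Tet2 KO LT-HSC and ST-HSC (0.276, 0.117, 0.296 and -0.031). In no comparison was every pair above 0.1, so the numbers were not taken to pair the libraries; with the number as a block 2 members were called for WT LT-HSC against CMP (1.05%). The other 231 counts under an alternative were within 1.5 times the main count. Fold changes of single members were followed for a selection, not for every member in every comparison. Within that selection, 837 were on the same side of the threshold under an alternative, 51 lost and 6 gained a call, and none changed direction. Members outside it also gained calls, such as Pdzk1ip1 and Ndn for WT LT-HSC against CMP in the fit of those populations alone. Low counts limit what can be read for the members with under 3 counts per library in MEP and CLP, and their cause was not tested.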
